A study of Mus musculus with 12 samples.

Results

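The 12 libraries of isolated mouse glomeruli differed in how much proximal tubule RNA they held, and this gradient was followed across all of them. Each library was scored by the mean log2 CPM (counts scaled to library size, with TMM factors over the 12 libraries) of 6 proximal tubule genes, Lrp2, Cubn, Slc34a1, Slc5a12, Slc22a6 and Miox, and every other gene was regressed on that score with the 4 groups as a factor. The members are the 2041 genes that rose and the 873 that fell with the score, of 13469 genes tested, at an adjusted p under 0.05 (edgeR's quasi-likelihood test, Benjamini-Hochberg). These are 15.2% and 6.48% of the genes tested. The members were chosen by their measured slopes, so their slopes are given as a description, with a standard error (SE) from the fit and with no test of their own.

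The 4 groups of 3 different C57BL/6 mice each were podocyte-specific Dach1 knockouts (Dach1 KO) after streptozotocin (STZ), controls after STZ, Dach1 KO mice at baseline, and controls at baseline. Dach1 encodes a nuclear regulator of transcription, and the knockout was restricted to podocytes, the epithelial cells of the filtration barrier, so other cells of the glomerulus kept the gene. The promoter that drove the deletion is not given in the labels. The titles of the control STZ samples carry an unexplained "hetN" that the other titles lack, so it is not known here whether the controls of both arms had the same genotype. STZ, which destroys the insulin-producing cells of the pancreas and so causes diabetes, was injected on 5 days, each time at 50 µg per g, and glomerular RNA was taken 10 days later, whereas the baseline mice were 10 weeks old and untreated. Dach1 was at 47.2 to 67.0 CPM in the 6 Dach1 KO libraries, against 106 to 188 CPM in the 6 control libraries, with no overlap. A library held 6.61e+07 to 7.86e+07 counts in the STZ arm and 2.26e+07 to 2.49e+07 in the baseline arm. Genes listed in both arms numbered 13475. Treatment, depth and the tables' own filters therefore cannot be told apart between the arms, and the sex of the mice, read below, is also uneven between them. The slopes are formed within groups. Glomeruli were collected on magnetic beads after perfusion through the heart, and genes of 29 listed for podocytes took 3.04% to 5.83% of a library's counts.

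The proximal tubule is the first segment of the nephron beyond the glomerulus. Its cells take up filtered protein through the receptors megalin and cubilin, recover phosphate, glucose, amino acids and lactate through sodium-coupled carriers, secrete organic anions and run gluconeogenesis on a dense stock of mitochondria. Glomerular podocytes, endothelium and mesangium do not carry this programme, which makes its transcripts a gauge of tubule RNA in a glomerular isolate. In bulk RNA, more tubule cells in the isolate and more tubule RNA per cell cannot be told apart, nor can less glomerular RNA be told apart from a larger share of other RNA.

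The score was 8.26, 7.19 and 6.71 in the Dach1 KO STZ libraries, 6.35, 7.20 and 8.43 in the control STZ libraries, 6.30, 9.07 and 9.17 in the Dach1 KO baseline libraries, and 7.01, 8.23 and 7.02 in the control baseline libraries (log2 CPM, replicates 1 to 3). Each group held a low and a high library, and the widest gap, 2.88 on the log2 scale, lay inside the Dach1 KO baseline group. Within-group differences made up 87.0% of the score's variance over the 12 libraries. The group means were 7.39 ± 0.79, 7.33 ± 1.05, 8.18 ± 1.63 and 7.42 ± 0.70 in the same order (SD, n = 3 each).

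The score did not separate the groups. The difference between Dach1 KO and control libraries was 0.76 at baseline (exact permutation test, two-sided, p = 0.4) and 0.06 after STZ (exact p = 1). STZ libraries lay below baseline libraries by a difference of -0.79 in Dach1 KO mice (exact p = 0.5) and -0.09 in controls (exact p = 1). The groups overlapped in all 4 comparisons, the adjusted p over the 4 was 1 for each, and 3 against 3 cannot give an exact p below 0.1. The baseline difference was 1.70 without Dach1 KO baseline replicate 1 and 0.28 without replicate 3 of that group, and the STZ minus baseline difference in Dach1 KO mice was -1.74 and -0.33 without the same libraries.

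Lrp2, which encodes megalin, was at 455, 259 and 120 CPM in Dach1 KO STZ libraries, 98.8, 210 and 471 CPM in control STZ libraries, 133, 887 and 730 CPM in Dach1 KO baseline libraries, and 208, 447 and 191 CPM in control baseline libraries. High values stood beside high scores in every group, as they did for Slc34a1, the sodium-phosphate carrier of the brush border, which ran over the 12 libraries from 236 to 2171 CPM. Cubn, which encodes cubilin, ran from 47.2 to 244 CPM, Slc5a12, a lactate carrier, from 30.6 to 303 CPM, and Miox, which breaks down inositol, from 99.4 to 862 CPM. Slc22a6, the organic anion carrier OAT1, had the widest range, 28.6 to 648 CPM or 4.50 on the log2 scale. The 6 genes together took 0.0575% of the counts in control STZ replicate 1 and 0.473% in Dach1 KO baseline replicate 3, the lowest and the highest shares.

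**Figure D1:**
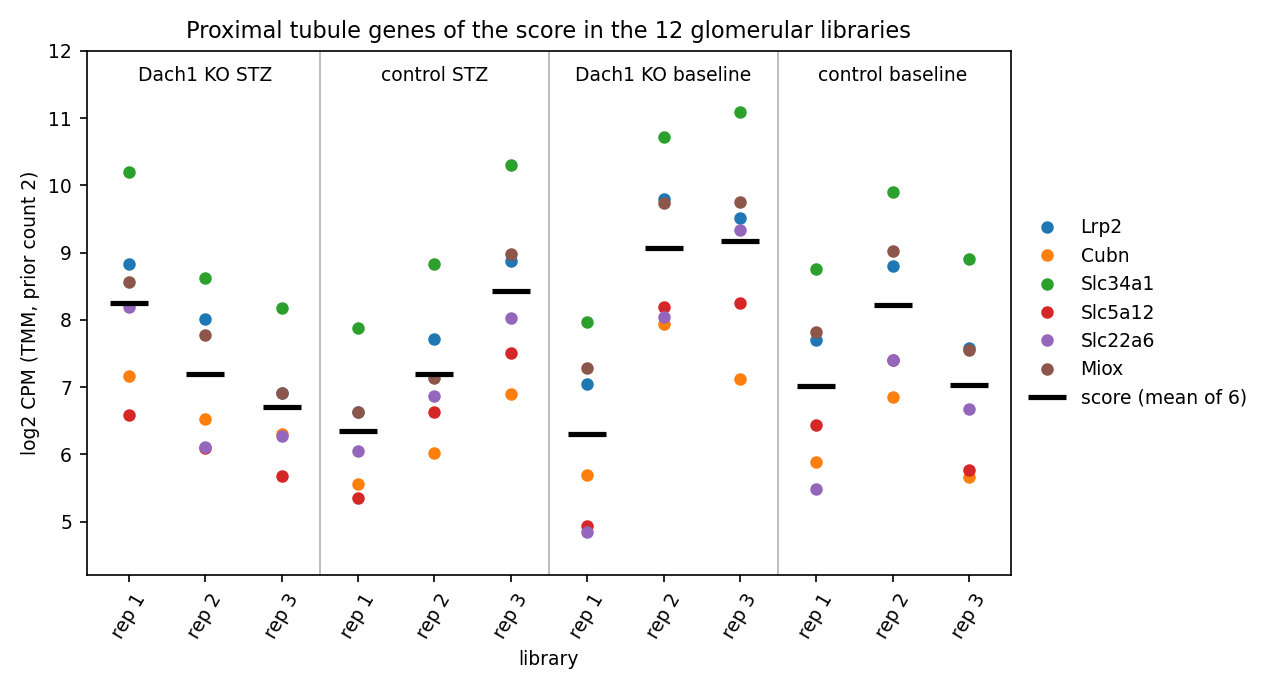
Log2 CPM of the 6 genes of the score (coloured points) and their mean (black bar) in each library, grouped by genotype and treatment. The bar spans 6.30 to 9.17 among the 3 Dach1 KO baseline libraries, and every group mixes low and high libraries.

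Slopes are in log2 CPM per unit of the log2 score, so a gene with a slope of 1 doubled whenever the 6 score genes doubled. The median slope over all genes tested was 0.00049. Among the 2041 rising genes the median slope was 0.34 and 640 exceeded 0.5; among the 873 falling genes it was -0.21 and 59 were below -0.5. The falling side was thus shallower. At the edge of the rising side Mrps34, with a slope of 0.22, was just inside the threshold and Slc29a4, with 1.39, just outside, and at the edge of the falling side Gm12339, with -0.14, was just inside and Pmp22, with -0.17, just outside.

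Proximal tubule transporters followed the score closely: 22 of the 23 measured rose and none fell, with a median slope of 0.87. Slc5a2, the sodium-glucose carrier SGLT2, was at 81.2, 36.4 and 30.3 CPM in Dach1 KO STZ libraries, 21.3, 45.7 and 105 CPM in control STZ libraries, 20.3, 155 and 152 CPM in Dach1 KO baseline libraries, and 29.7, 76.9 and 41.5 CPM in control baseline libraries. Its order of libraries was nearly that of the score in all groups, and its slope was 1.02 (SE 0.05). Slc4a4, the basolateral bicarbonate exporter, had a slope of 0.92 (SE 0.05), and Slc26a1, a sulfate carrier, 1.04 (SE 0.07). Slc7a8, a neutral amino acid exchanger, was the transporter not called, with a slope of 0.25 (SE 0.11). Over the 23 transporters a median of 91.9% of a gene's within-group variance was shared with the score, against 26.3% over all genes.

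All 7 genes of the endocytic machinery and brush border scaffold rose, with a wide spread of slopes. Amn, which anchors cubilin, and Pdzk1, a scaffold of brush border carriers, had slopes of 1.06 (SE 0.05) and 0.98 (SE 0.05). Dab2, an endocytic adaptor, had a slope of 0.35 (SE 0.03) on a level of 159 to 330 CPM. Of 10 measured brush border enzymes 7 rose, among them the proteases Mep1a (1.04, SE 0.13) and Anpep (0.74, SE 0.06), the dipeptidase Dpep1 (0.89, SE 0.07) and Folh1 (0.80, SE 0.05). Ace, Dpp4 and Xpnpep2 were not called.

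Of 27 genes for proximal tubule metabolism 24 rose, with a median slope of 0.91. Fbp1 of gluconeogenesis had a slope of 0.98 (SE 0.06) and Khk, the fructose kinase, 0.87 (SE 0.06). Acmsd, a branch-point enzyme of tryptophan breakdown, rose most steeply of these with an SE under 0.1, at 1.18 (SE 0.07). Cyp27b1, Cyp2e1 and Hpd were not called. Of 8 genes of the straight segment S3, 4 rose, and Fut9, a fucosyltransferase, had a slope of 0.99 (SE 0.08) whereas the organic anion carrier Slc22a7 had a slope of 0.90 (SE 0.26). The S3 count was 1 without control STZ replicate 1, control STZ replicate 3 or Dach1 KO baseline replicate 1, and 2 without Dach1 KO STZ replicate 3 or Dach1 KO baseline replicate 3.

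The transcription factors of the proximal tubule rose too: all 6 listed were called, with a median slope of 0.84. Hnf4a, the nuclear receptor that maintains the differentiated proximal tubule cell, was at 133, 62.9 and 57.4 CPM in Dach1 KO STZ libraries, 53.8, 91.7 and 176 CPM in control STZ libraries, 32.9, 198 and 208 CPM in Dach1 KO baseline libraries, and 60.6, 127 and 52.1 CPM in control baseline libraries. The values stood close to the order of the score in all groups, with a slope of 0.89 (SE 0.04). Ppara, the receptor that controls fatty acid oxidation, had the lower slope of 0.52 (SE 0.10).

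A binding word of HNF4, the family of Hnf4a, was read in the promoters of the genes, which the regression did not use. Promoters run from 250 bases before to 50 after a transcript start of a gene, taken from RefSeq (GRCm38.p6). At least 1 was found for 10396 of 13475 symbols, for 13235 promoters in all. The HNF4 word CAAAGTCCA, searched on both strands, lay in 0.446% of all promoters and in 6.41% of the promoters of the proximal tubule lists (5 of 78, from 60 of 74 genes matched). It lay in 2.00% of the promoters of rising genes with a slope over 0.5 (13 of 649) and in 0.465% of those of falling genes (4 of 861). A match is a run of letters, not an occupied site, and the lists are small. Of the 5 promoters of the proximal tubule lists with the word, those of Pdzk1, Slc3a1 and Treh are printed in the gene's sense. The word is in capitals (its reverse complement in Treh). They were taken because they come from a scaffold, a carrier and an enzyme of the same brush border.
Pdzk1 chr3:96829815-96830114 plus strand: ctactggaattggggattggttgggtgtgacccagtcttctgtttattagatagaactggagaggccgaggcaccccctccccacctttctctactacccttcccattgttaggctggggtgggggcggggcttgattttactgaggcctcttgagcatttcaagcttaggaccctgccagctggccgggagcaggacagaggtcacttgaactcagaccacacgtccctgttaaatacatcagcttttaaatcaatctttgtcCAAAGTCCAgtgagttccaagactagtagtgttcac
Slc3a1 chr17:85028097-85028396 plus strand: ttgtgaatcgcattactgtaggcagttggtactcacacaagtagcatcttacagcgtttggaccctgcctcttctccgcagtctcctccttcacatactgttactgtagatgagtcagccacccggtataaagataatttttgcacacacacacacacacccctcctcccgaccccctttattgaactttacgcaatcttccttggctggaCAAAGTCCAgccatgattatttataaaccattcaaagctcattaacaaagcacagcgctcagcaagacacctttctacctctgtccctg
Treh chr9:44672983-44673282 plus strand: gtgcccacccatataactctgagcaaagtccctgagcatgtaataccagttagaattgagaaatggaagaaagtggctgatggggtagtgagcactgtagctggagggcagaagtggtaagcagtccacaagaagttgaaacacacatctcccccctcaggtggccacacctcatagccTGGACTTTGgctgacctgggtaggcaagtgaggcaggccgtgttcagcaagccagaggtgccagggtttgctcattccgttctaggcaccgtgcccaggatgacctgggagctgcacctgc

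The word starts at base 15 of a Pdzk1 transcript, 39 bases before the start of Slc3a1 and 71 bases before that of Treh. Positions are counted to the word's first base as printed. The Pdzk1 window begins inside the annotated gene (chr3:96829456-96870926), so the transcript start it uses is not the gene's first. Slc3a1, the heavy subunit of the cystine carrier, had a slope of 0.83, and Treh, which splits trehalose, 0.93.

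Tubule segments beyond the proximal tubule rose as well, less steeply. Of 8 genes of the distal convoluted tubule 7 rose, with a median slope of 0.59; of 13 of the collecting duct 11 rose, with a median of 0.37; and of 10 of the loop of Henle 6 rose, with a median of 0.34. Slc12a3, the thiazide-sensitive carrier of the distal convoluted tubule, was at 337, 60.5 and 84.5 CPM in Dach1 KO STZ libraries, 92.2, 142 and 230 CPM in control STZ libraries, 78.2, 333 and 366 CPM in Dach1 KO baseline libraries, and 173, 149 and 56.9 CPM in control baseline libraries. It was high in the 3 libraries of highest score and in Dach1 KO STZ replicate 1, but in control baseline libraries it did not follow the score, and its slope was 0.79 (SE 0.18). The kinase Wnk4, which governs that carrier, had a slope of 0.56 (SE 0.07). In the collecting duct the water channel Aqp3 had a slope of 0.61 (SE 0.10), Hsd11b2, which shields the mineralocorticoid receptor from corticosterone, 0.60 (SE 0.10), and the sodium channel subunit Scnn1b 0.49 (SE 0.09). In the loop of Henle Cldn10, a tight junction protein, had a slope of 0.80 (SE 0.12) and the potassium channel Kcnj1 0.54 (SE 0.10). Slc12a1, Cldn16, Cldn19 and Egf of the loop were not called. All 10 loop slopes were positive, the lowest at 0.006. These counts rested on few libraries. Without Dach1 KO baseline replicate 1, 2 genes of the distal convoluted tubule, 3 of the collecting duct and 3 of the loop were called. Without control STZ replicate 3 the collecting duct count was 6 and the loop count 3, without control STZ replicate 1 the loop count was 3, and without Dach1 KO baseline replicate 3 the distal convoluted tubule count was 4 and the collecting duct count 7. Over the 12 fits that each left out a library the median of the distal convoluted tubule stayed between 0.54 and 0.63.

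**Figure D2:**
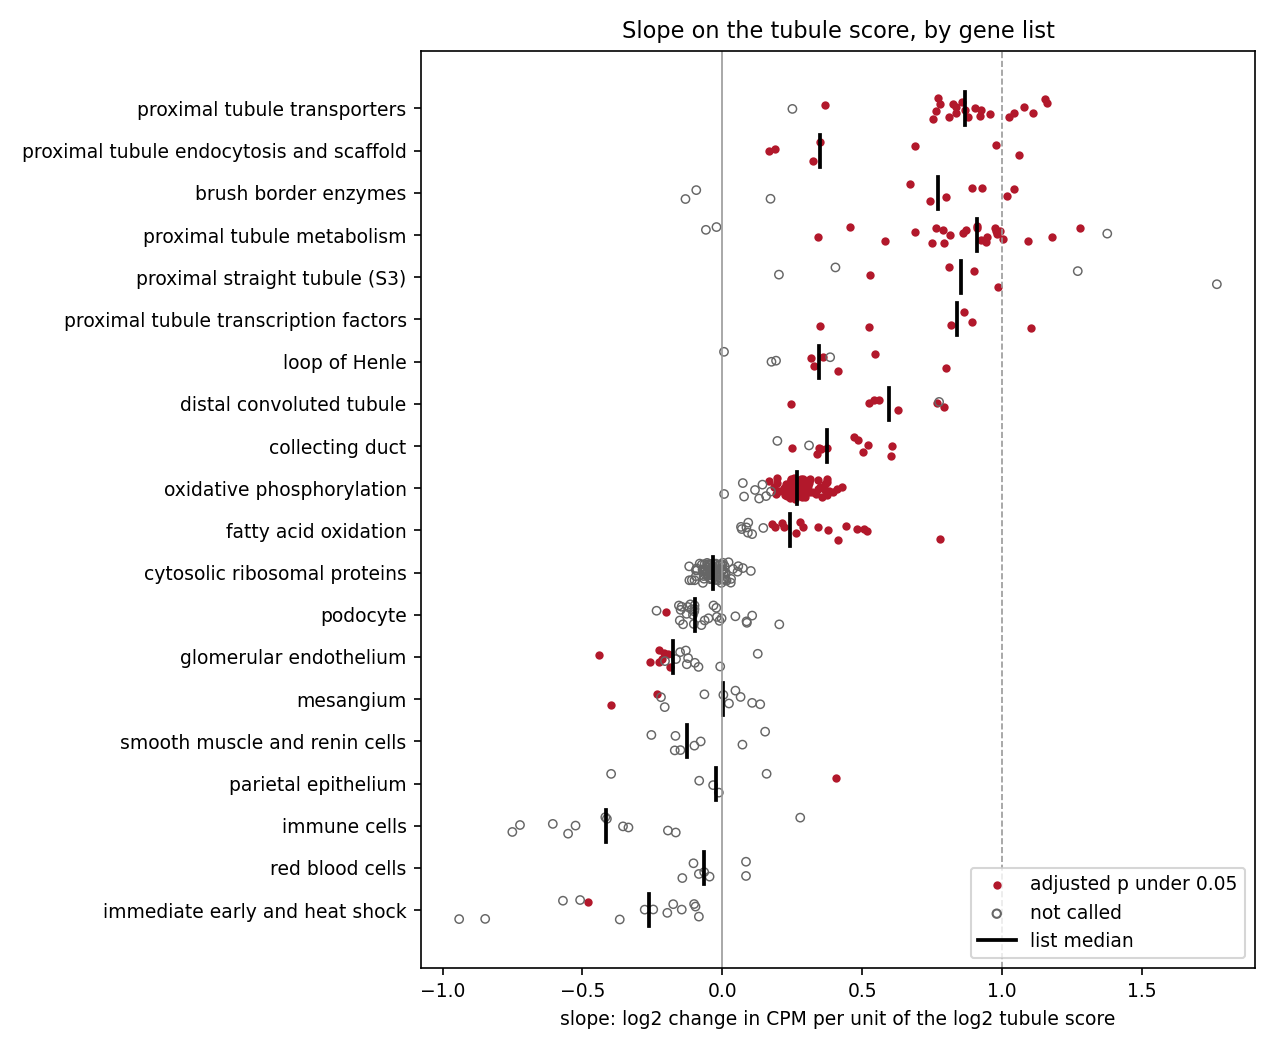
Slope on the tubule score of every measured gene in 20 lists, with called genes filled, others open and the list median as a bar; the solid line marks 0 and the dashed line 1. The proximal tubule transporters lie between 0.25 and 1.16, and the podocyte genes between -0.24 and 0.20.

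Nuclear genes of oxidative phosphorylation rose together: 70 of 78 were called and none fell, with a median slope of 0.27. Ndufs1, a core subunit of complex I, was at 154, 120 and 121 CPM in Dach1 KO STZ libraries, 115, 137 and 173 CPM in control STZ libraries, 92.2, 151 and 185 CPM in Dach1 KO baseline libraries, and 99.1, 131 and 102 CPM in control baseline libraries. Its slope was 0.29 (SE 0.03), so its range was narrow but closely tied to the score, which shared 94.7% of its within-group variance. Cox5a, of complex IV, had a slope of 0.43 (SE 0.06), and Cyc1, of complex III, 0.37 (SE 0.05). Of 22 genes of fatty acid oxidation 15 rose and none fell, with a median of 0.24, led by the peroxisomal enzyme Ehhadh (0.78, SE 0.09), ahead of Hadh (0.51, SE 0.07), Acadm (0.48, SE 0.06) and Etfa (0.41, SE 0.05). Without Dach1 KO baseline replicate 1 the oxidative phosphorylation count was 19 and the fatty acid oxidation count 8. Without the 2 libraries of highest score they were 10 and 8, in the STZ arm alone 0 and 3, and in the baseline arm alone 43 and 10. Of the 78 cytosolic ribosomal protein genes none was called in either direction over the 12 libraries, with a median slope of -0.03. Their median was 0.14 in the STZ arm, where none was called, and -0.13 in the baseline arm, where 21 fell.

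Genes that took many counts rose too. Gpx3, the plasma glutathione peroxidase that the proximal tubule secretes, was at 6588, 3697 and 3595 CPM in Dach1 KO STZ libraries, 2419, 2780 and 7083 CPM in control STZ libraries, 1968, 9838 and 11652 CPM in Dach1 KO baseline libraries, and 2519, 6039 and 2912 CPM in control baseline libraries. It followed the score in every group with a slope of 0.82 (SE 0.07). The ferritin chains Ftl1 (0.21, SE 0.06) and Fth1 (0.28, SE 0.08) and the ATP synthase subunits Atp5b (0.26, SE 0.05) and Atp5a1 (0.20, SE 0.06) had shallower slopes. Among called genes with a mean of at least 10 CPM the steepest slopes belonged to Serpinf2 (1.31, SE 0.31), an inhibitor of plasmin, and the organic anion carriers Slc22a22 (1.31, SE 0.15) and Slco1a6 (1.29, SE 0.25), and then to Acy3 (1.28, SE 0.33), Acsm2 (1.23, SE 0.20) and Tmem174 (1.22, SE 0.11).

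**Figure D3:**
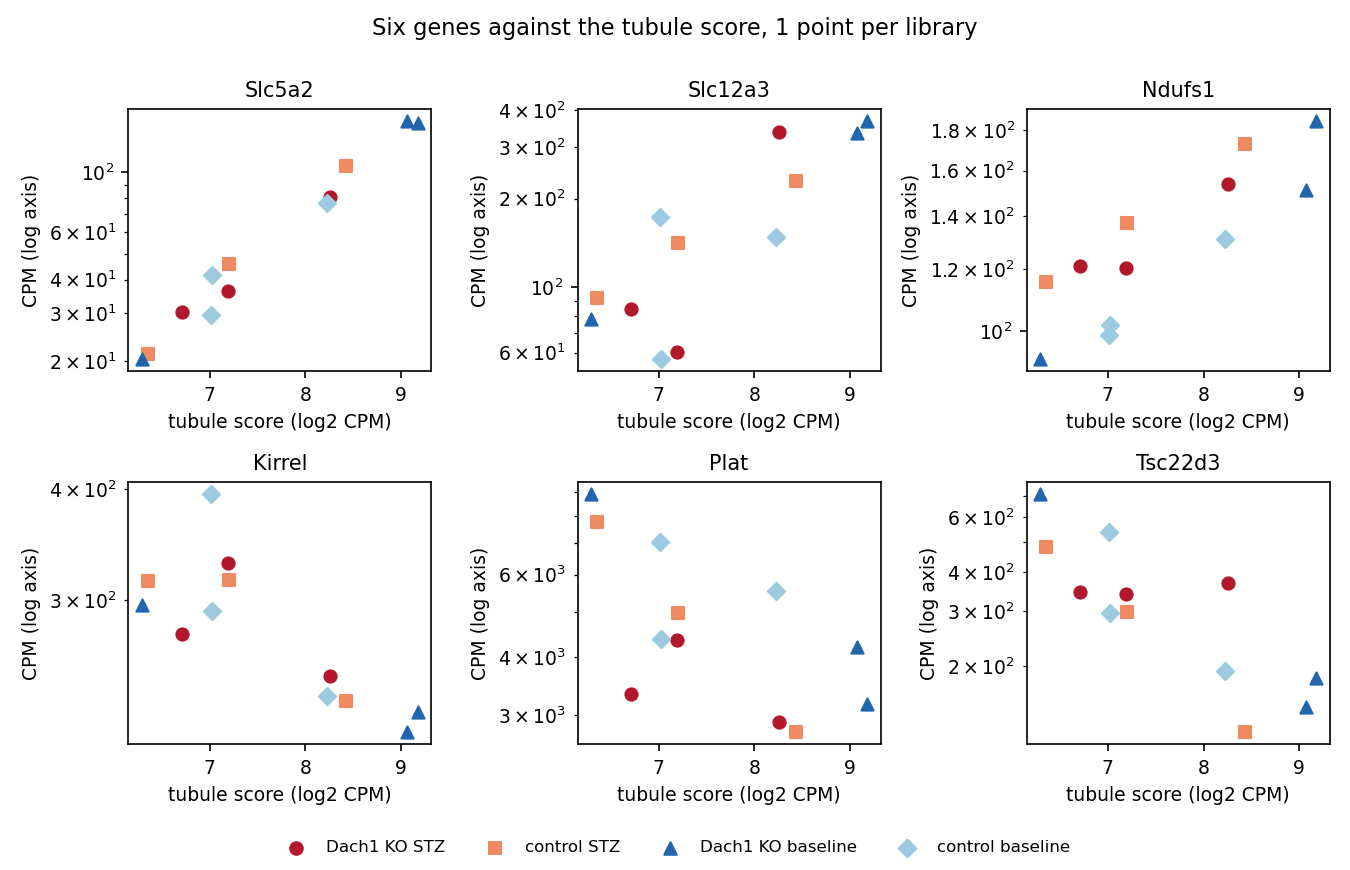
CPM (log axis) of 6 genes against the tubule score (log2 CPM), with 1 point per library coloured by group. Slc5a2 rises along the score in all groups with a slope of 1.02, Ndufs1 has a slope of 0.29, and Kirrel, Plat and Tsc22d3 fall, with slopes of -0.20, -0.44 and -0.69.

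Glomerular cell types fell little. Of 29 podocyte genes 24 had negative slopes, the median was -0.10, and Kirrel was the gene called. Over all genes tested 6717 of 13469 slopes were negative and 6.48% were called as falling, so 1 call among 29 is not above that share. Leaving out a library moved the podocyte count to 3 without Dach1 KO STZ replicate 3 and to 0 without control STZ replicates 1 or 3, control baseline replicate 2 or any of Dach1 KO baseline replicates 1 to 3, and Kirrel also lost its call without Dach1 KO STZ replicate 1. Kirrel, which encodes the slit diaphragm protein NEPH1, was at 246, 330 and 275 CPM in Dach1 KO STZ libraries, 315, 316 and 231 CPM in control STZ libraries, 296, 213 and 224 CPM in Dach1 KO baseline libraries, and 395, 234 and 292 CPM in control baseline libraries. In every group but Dach1 KO baseline the library of highest score held the least, and in that group both high libraries held less than the low one; its slope was -0.20 (SE 0.06). Wt1, a podocyte transcription factor, had a slope of -0.12 (SE 0.05), and Cd2ap, an adaptor at the slit diaphragm, -0.11 (SE 0.04), and neither was called. The score shared a median of 22.0% of a podocyte gene's within-group variance, against 26.3% over all genes. At a slope of -0.10 over the widest gap between 2 libraries of a group, the library of higher score holds 0.82 times the level of the other.

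The endothelium of the glomerulus fell more evenly, with 8 of 18 genes called, 17 of 18 slopes negative and a median of -0.18. Plat, the tissue plasminogen activator, was at 2898, 4358 and 3336 CPM in Dach1 KO STZ libraries, 7784, 4961 and 2759 CPM in control STZ libraries, 8915, 4196 and 3176 CPM in Dach1 KO baseline libraries, and 7064, 5550 and 4366 CPM in control baseline libraries. The libraries of lowest score in the control STZ and both baseline groups held the most, and its slope was -0.44 (SE 0.10). Control baseline replicates 1 and 3 had nearly equal scores, however, at 7.01 and 7.02. Replicate 3 held less Plat than replicate 2 of that group, which scored 8.23. Flt1, a receptor for vascular endothelial growth factor, had a slope of -0.21 (SE 0.05), the phosphatase Ptprb -0.22 (SE 0.05), the adhesion receptor Adgrl4 -0.23 (SE 0.06), and Ehd3, an endocytic protein enriched in glomerular capillaries, -0.20 (SE 0.06). The count of endothelial genes called was 0 without Dach1 KO baseline replicate 1, 2 without control STZ replicate 1 or 3, 3 without Dach1 KO STZ replicate 1 or Dach1 KO baseline replicate 3, and 5 without control baseline replicate 1, and the median stayed between -0.14 and -0.21 over the 12 fits that each left out a library. Of 11 mesangial genes Art3 (-0.40, SE 0.10) and Mgp (-0.23, SE 0.06) fell and the median was 0.00, where 6.48% of all genes tested fell. The mesangial count was 0 without control STZ replicate 3 and 3 without Dach1 KO STZ replicate 3. It was 1 without control STZ replicate 1, Dach1 KO baseline replicate 1 or Dach1 KO baseline replicate 3. No gene of 8 for smooth muscle and renin cells was called, and in 6 genes of parietal epithelium Pax2, which tubule cells share, rose (0.40, SE 0.07). That is 1 call among 6, near the 15.2% of all genes tested that rose.

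The steepest fallers were not cell identity genes of the lists. Cyp26b1, which breaks down retinoic acid, had a slope of -1.04 (SE 0.28), Serpina3g -0.95 (SE 0.23), the nuclear receptor Nr4a3 -0.93 (SE 0.30), and the integrin chain Itgb3 -0.81 (SE 0.25). Tsc22d3, the glucocorticoid-induced leucine zipper, was at 368, 340 and 345 CPM in Dach1 KO STZ libraries, 481, 297 and 123 CPM in control STZ libraries, 709, 148 and 183 CPM in Dach1 KO baseline libraries, and 537, 193 and 296 CPM in control baseline libraries. It was flat in the Dach1 KO STZ libraries and fell along the score in the other groups, with a slope of -0.69 (SE 0.12). The clock gene Per2 had a slope of -0.73 (SE 0.18). Of 14 immediate early and heat shock genes, which cells switch on quickly after a stimulus, all had negative slopes with a median of -0.26, but Atf3 (-0.48, SE 0.15) was the gene called. That is 1 call among 14, near the 6.48% of all genes tested that fell. Atf3 kept its call in 11 of 26 other fits, which left out libraries or changed the processing or the model. In the baseline arm alone 4 of the 14 genes fell, where 3.89% of all genes did, and in the STZ arm alone 0 fell. The mean of these 14 genes was highest in Dach1 KO baseline replicate 1 and control baseline replicate 1, at 6.90 and 6.75 log2 CPM, against 5.42 to 6.41 in the other 10 libraries. Both are libraries of low score, and their part in the other falling slopes was not tested. Among genes with many counts the protease inhibitor Timp3 (-0.25, SE 0.07), the matricellular gene Ctgf (-0.41, SE 0.10), Itgb1 (-0.15, SE 0.04) and the class I antigen gene H2-D1 (-0.38, SE 0.10) fell.

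Genes of tubule injury did not move with the tubule genes: of 8 measured none rose, and Cdkn1a, an inhibitor of the cell cycle, fell (-0.55, SE 0.12). The rest were not called. Among all genes tested 15.2% rose and 6.48% fell.

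The arms share no library, so genes called in one arm can be read in the other. In the STZ arm alone 561 genes rose (4.17% of those tested) and 83 fell (0.616%); in the baseline arm alone 1202 rose (8.93%) and 524 fell (3.89%). Of the 1202 genes that rose at baseline 1143 had a positive slope in the STZ arm, or 95.1%, against 48.5% of all genes tested, with a median of 0.40 there and 0.42 in the arm that chose them. Of the 561 that rose after STZ 555 had a positive slope at baseline, or 98.9%, against 52.0% of all genes. The genes called as rising in both arms numbered 421, which is 75.0% of the STZ list and 35.0% of the baseline list.

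The counts within an arm rest on 6 libraries. At baseline no gene was called in either direction without Dach1 KO baseline replicate 1 (edgeR; 928 rose and 610 fell at an unadjusted p under 0.05), and 545 to 664 rose and 49 to 221 fell without control baseline replicate 1 or 2 or Dach1 KO baseline replicate 2 or 3. After STZ none was called without control STZ replicate 3 (888 and 486 at an unadjusted p under 0.05), 90 rose and 3 fell without Dach1 KO STZ replicate 1, and 127 rose and 4 fell without control STZ replicate 1. Without control STZ replicate 2 or Dach1 KO STZ replicate 3 the falling count was 132 or 183.

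The falling side carried over less. Of 523 genes that fell at baseline and were fitted in the STZ arm, 422 (80.7%) had a negative slope there, against 51.5% of all genes, but the median was -0.13 against -0.23 in the arm that chose them. Of the 83 that fell after STZ, 67 (80.7%) had a negative slope at baseline, with a median of -0.18 against -0.75. The lists had 10 genes in common, 12.05% of the STZ list and 1.91% of the baseline list.

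No gene's slope differed between the arms at the threshold (0% of 13469, edgeR); 1112 did at an unadjusted p under 0.05, and DESeq2 called 109. The lists differed in how well they carried over. Transporters had medians of 0.87 in the STZ arm and 0.89 at baseline, and oxidative phosphorylation 0.33 and 0.23. The 12 immune cell genes had medians of -0.998 in the STZ arm and 0.02 at baseline, and the 7 red blood cell genes 0.89 and -0.67. The class II antigen gene H2-Aa was at 27.1, 73.9 and 89.5 CPM in Dach1 KO STZ libraries, 194, 32.2 and 27.7 CPM in control STZ libraries, 17.7, 17.3 and 10.6 CPM in Dach1 KO baseline libraries, and 10.7, 16.6 and 12.8 CPM in control baseline libraries. Control STZ replicate 1, the STZ library of lowest score, held the most, and without it the immune median over the other 11 libraries was -0.09, against -0.42 with all 12. No immune gene was called over the 12 libraries, whereas 5 of the 12 fell in the STZ arm alone and none was called at baseline. In the red cell list Hbb-b2 and Hbb-bt had equal counts in every library, so they carry 1 measurement, and how the counting treated these near-identical copies is not known here.

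**Figure D4:**
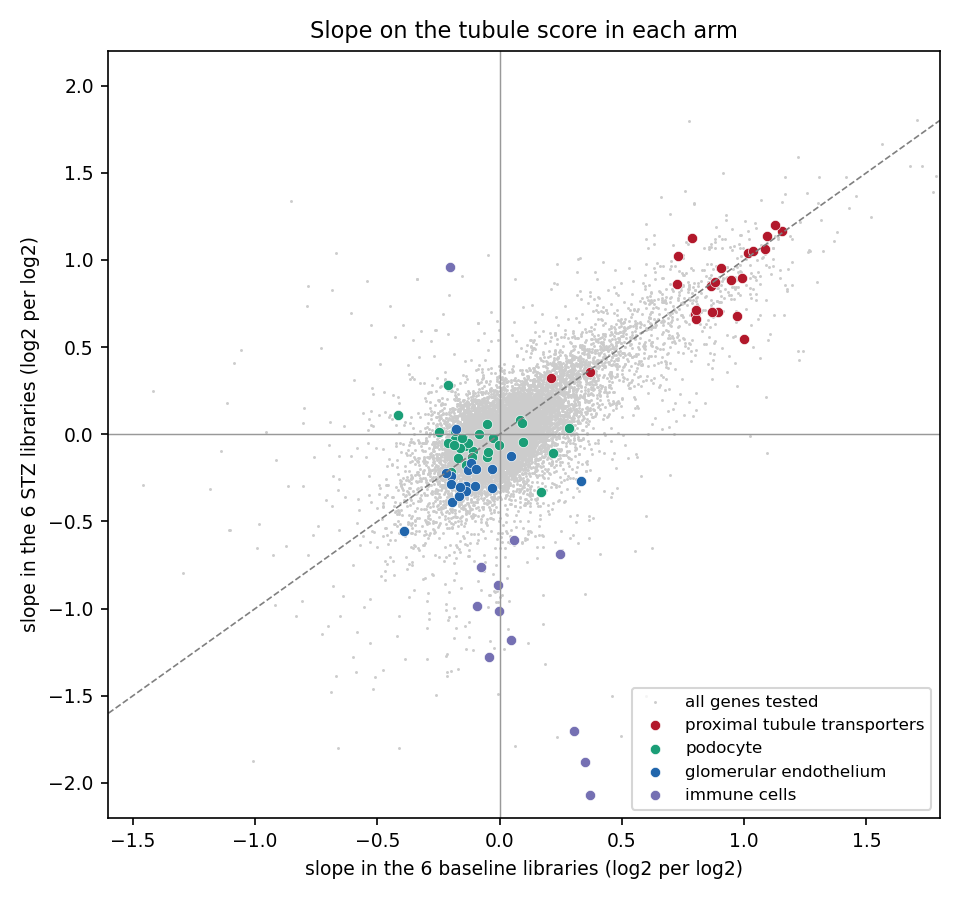
Slope of each gene in the 6 STZ libraries (vertical axis) against its slope in the 6 baseline libraries (horizontal axis), in log2 per log2, with 4 lists coloured and the dashed line marking equal slopes; 4 genes lie outside the drawn range. Transporters lie along the line with medians of 0.87 and 0.89, and the immune genes fall away from it, with medians of -0.998 and 0.02.

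A pair of libraries from mice of the same sex and group shows the gradient directly. Dach1 KO baseline replicate 2 scored 2.77 above replicate 1, and all 23 transporters were higher in it, by a median of 2.56 on the log2 scale, as were all 22 fatty acid oxidation genes, by 0.53. Podocyte genes differed by a median of -0.18, endothelial genes by -0.35 and red blood cell genes by -2.37. Control STZ replicate 3 scored 2.08 above replicate 1, with transporters higher by a median of 1.95 and all 18 endothelial genes lower, by a median of -0.72. Of the 22 fatty acid oxidation genes 16 were higher in control STZ replicate 3, with a median difference of 0.38 over the list. In this pair podocyte genes differed by a median of -0.06, immune genes by -2.27 and red blood cell genes by 2.59, the last in the opposite direction from the first pair. These are single libraries without a test.

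Sex was read from Xist and Ddx3y, which separated 7 male from 5 female libraries without overlap. The control STZ libraries were all male, and Dach1 KO STZ replicate 2 was the only female library of the STZ arm. Most baseline libraries were female. Sex is therefore partly mixed with arm, and the knockout comparison after STZ is not balanced for it. Xist was at 45.9 CPM or more in female and at most 1.44 CPM in male libraries, and the mean score was 7.59 ± 1.04 in males and 7.56 ± 1.09 in females (SD, n = 7 and 5). The proximal tubule is a strongly sex-dependent epithelium in the mouse. With group, score and sex in the model 94 genes were higher in males (0.698% of those tested) and 30 in females (0.223%), against 7 and 2 with the score left out. Slc22a6 is part of that score and was not tested for sex. It was at 44.9 and 102 CPM in control baseline replicates 1 (female, score 7.01) and 3 (male, 7.02). In Dach1 KO baseline replicates 2 (female, 9.07) and 3 (male, 9.17) it was at 264 and 648 CPM. With Slc22a6 and Miox left out of the score 1860 genes rose and 735 fell. With sex added to the model of group and full score 2012 rose and 691 fell.

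Kap, the androgen-regulated kidney protein, was at 5009, 352 and 985 CPM in Dach1 KO STZ libraries, 418, 1399 and 5046 CPM in control STZ libraries, 88.9, 496 and 14206 CPM in Dach1 KO baseline libraries, and 279, 175 and 2274 CPM in control baseline libraries. The female libraries were Dach1 KO STZ replicate 2, Dach1 KO baseline replicates 1 and 2 and control baseline replicates 1 and 2, and all lay at or below 496 CPM, whereas 418 CPM was the lowest male value. At a given score Kap was higher in males by 3.43 on the log2 scale (SE 0.53, adjusted p = 0.0161, edgeR). Cyp7b1, a steroid hydroxylase, was higher by 4.08 (SE 0.36, adjusted p = 0.000684), Slco1a1, an organic anion carrier, by 3.77 (SE 0.61, adjusted p = 0.0219), and Odc1, of polyamine synthesis, by 0.81 (SE 0.12, adjusted p = 0.0141). Slc22a30 was higher by 2.67 (SE 0.38, adjusted p = 0.0138). Cyp4b1, the sixth of the male-biased list, did not pass, at 1.01 (SE 0.40, adjusted p = 0.441).

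On the female-biased list Prlr, the prolactin receptor, was higher in females, with a male minus female difference of -3.01 (SE 0.53, adjusted p = 0.0333, edgeR). Hao2, a hydroxy acid oxidase, gave -1.10 (SE 0.24, adjusted p = 0.083, edgeR) and did not pass. Of the 4 genes tested on that list, Prlr was the 1 called higher in females. Several of the steepest risers differed by sex at a given score. Acy3 was higher in males by 1.98 (SE 0.16, adjusted p = 0.000429), Serpinf2 by 1.89 (SE 0.17, adjusted p = 0.000692), Adh1 by 1.91 (SE 0.26, adjusted p = 0.0114) and Acsm2 by 1.21 (SE 0.10, adjusted p = 0.000602). Their slopes with sex in the model were 1.04, 1.09, 0.88 and 1.10, against 1.28, 1.31, 1.14 and 1.23 without it. The male count fell to 21 without control baseline replicate 3 or Dach1 KO baseline replicate 3, to 35 without control baseline replicate 2 and to 59 without Dach1 KO baseline replicate 2, and was 21 to 91 over the 12 fits that each left out a library. The female count was 2 without control baseline replicate 3, 5 without Dach1 KO baseline replicate 3, 6 without control baseline replicate 2, and 19 without Dach1 KO baseline replicate 2 or Dach1 KO STZ replicate 2.

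**Figure D5:**
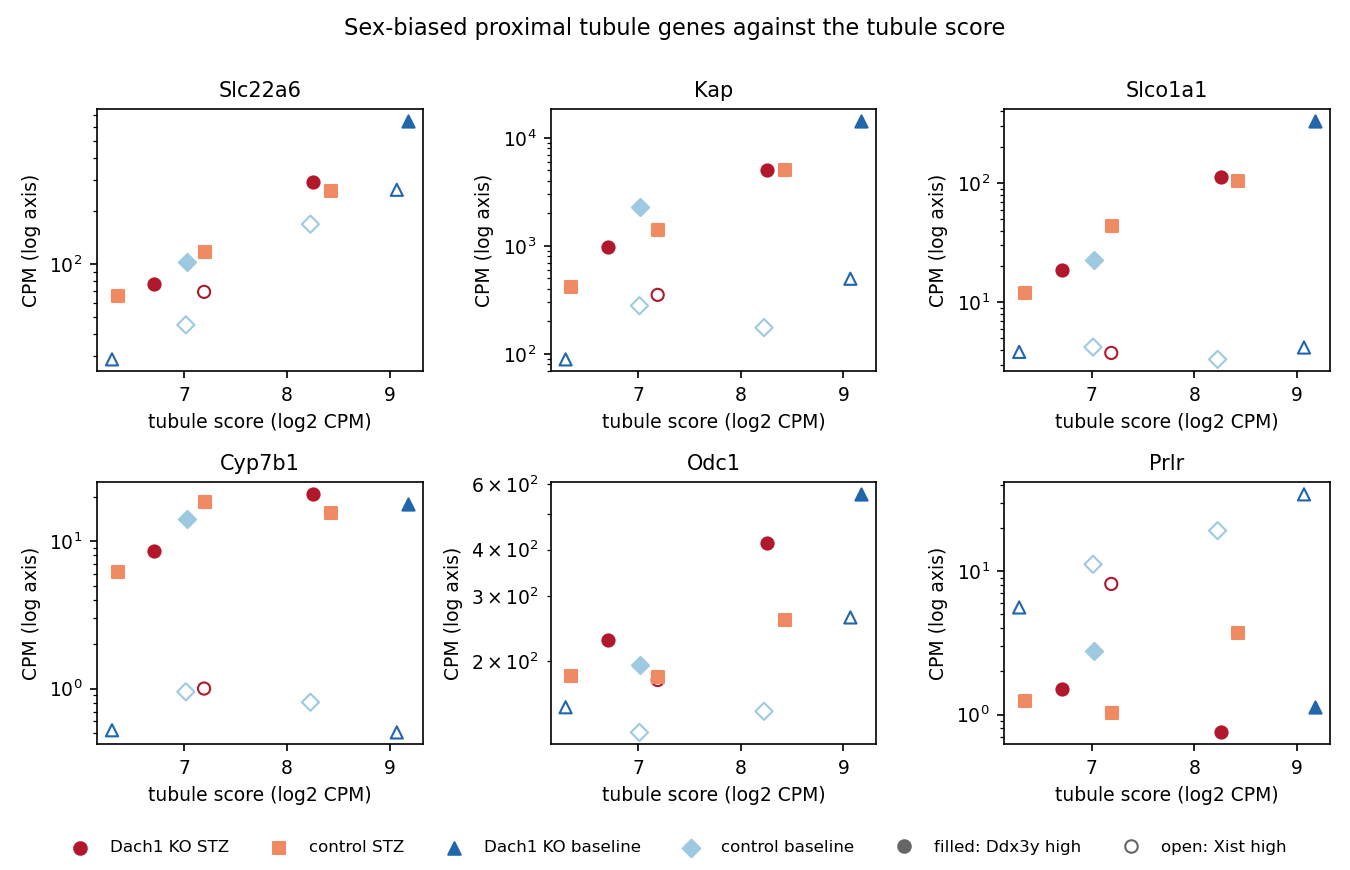
CPM (log axis) of Slc22a6 and 5 sex-biased genes against the tubule score (log2 CPM), with 1 point per library coloured by group, filled where Ddx3y was high and open where Xist was high. The filled points of Cyp7b1 lie above the open ones by 4.08 on the log2 scale at a given score, and those of Prlr below them by -3.01.

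The knockout comparison was fitted with and without the score. The transporters, Slc5a2 among them, follow the score closely. Their smaller baseline difference with the score was therefore fixed by the model and is no test. At baseline the transporters differed between Dach1 KO and control libraries by a median log2 difference of -0.02 with the score in the model and of 1.01 without it; after STZ the medians were -0.11 with it and -0.10 without it. Slc5a2 showed a Dach1 KO minus control difference at baseline of -0.01 (SE 0.14) with the score and of 1.14 (SE 0.76) without it, and neither passed. With the score 94 genes differed between Dach1 KO and control at baseline (0.698% of those tested), 52 higher and 42 lower, against 80 without it (0.594%), and 72 were called in both. After STZ 456 differed with the score (3.39%), 312 higher and 144 lower, against 292 without it (2.17%), and all 292 stayed among the 456. With both score and sex in the model 89 genes differed at baseline and 435 after STZ. The standard error of the difference was smaller with the score, by a median ratio of 0.953 at baseline and 0.905 after STZ, and no called gene changed its sign.

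Dach1 itself barely moved with the score added, with a Dach1 KO minus control log2 difference of -1.49 (SE 0.21) with it and -1.48 (SE 0.20) without it at baseline, and of -1.41 in both models after STZ. Rdh10, which makes retinaldehyde from retinol, was gained in both arms. It was at 57.3, 43.7 and 44.3 CPM in Dach1 KO STZ libraries, against 16.8, 25.6 and 28.9 CPM in control STZ libraries, and at 30.9, 42.1 and 55.8 CPM in Dach1 KO baseline libraries, against 14.8, 21.5 and 19.1 CPM in control baseline libraries. The groups did not overlap in either arm, and with the score the difference was 1.03 after STZ (SE 0.14, adjusted p = 0.00292, edgeR; 0.0764 without the score) and 0.99 at baseline (SE 0.15, adjusted p = 0.0121; 0.0875 without). Calls were lost as well at baseline, 8 in all: Ncam1, a cell adhesion gene, had an adjusted p of 0.0533 with the score and 0.0378 without it, at differences of -0.92 and -0.93, and Crb2, a polarity gene of podocytes, 0.0559 and 0.0445, at -0.67 in both. The baseline count with the score was 32 without Dach1 KO baseline replicate 1 and 58 without control baseline replicate 1, and the STZ count was 266 to 282 without any of control STZ replicates 2 and 3 or Dach1 KO STZ replicates 1 and 3.

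The rising and falling counts leaned on the libraries that stretch the score. Without Dach1 KO baseline replicate 1, the library of lowest score, 822 genes rose and 77 fell; without control STZ replicate 3, 1243 rose and 465 fell; and without Dach1 KO baseline replicate 3, 517 fell. Leaving out the 2 libraries of highest score together left 692 rising and 49 falling, with transporter and podocyte medians of 0.89 and -0.10.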

How the data were processed

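RNA-seq of isolated glomeruli was available as 1 table per library, 12 in all, 3 mice in each of 4 groups. The values are expected counts per gene symbol as deposited by the authors, of which 10.5% to 11.5% end in 0.5; they were rounded to whole numbers. BWA and mm10 appear in the submitters' processing notes, with no role or version; for the counting tool and strand handling the sources used here give nothing. Genes listed in both arms (13475) were used, with 15 blank values taken as 0. CPM were TMM-scaled, with a prior count of 2 in log2 values. Slopes came from edgeR 4.0.16 (R 4.3.3; quasi-likelihood, groups plus score, 7 residual degrees of freedom), with genes called at an adjusted p under 0.05; sex or genotype terms were fitted on the same table. The steps were tested on simulated data. Named genes were the listed members of smallest p, the 12 steepest risers and fallers at a mean of at least 10 CPM, those with most counts, and genotype calls gained or lost with the score; genes at the edge of the threshold, with printed promoters or in the knockout example were named after their values were seen. The members, lists and tests were chosen with earlier results of these data known. Positions and promoters are RefSeq's, GRCm38.p6, the assembly under mm10. A second promoter word and some named genes are not reported here.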

Additional observations from a re-analysis of the deposited data

How the results depend on the processing

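The results rest on 12 libraries with 7 residual degrees of freedom, and low counts limit genes at a few CPM. Over the 12 fits that each left out a library, 822 to 2035 genes rose and 77 to 1081 fell; within the STZ arm 0 to 528 rose and 0 to 183 fell, and within the baseline arm 0 to 1137 and 0 to 558. The genotype counts were 32 to 98 at baseline and 266 to 433 after STZ, the sex counts 21 to 91 (male) and 2 to 31 (female), and the slope differences between arms 0 to 1. The score differences ran from -0.43 to 0.61 for Dach1 KO minus control after STZ and from -0.66 to 0.39 for STZ minus baseline in controls, so both turned sign, and from 0.28 to 1.70 for Dach1 KO minus control at baseline and -1.74 to -0.33 for STZ minus baseline in Dach1 KO mice. Scored on 23 transporters, Dach1 KO minus control after STZ was -0.0318 and STZ minus baseline in controls 0.0344, both of turned sign. On that score Dach1 KO minus control at baseline was 0.62 and STZ minus baseline in Dach1 KO mice -0.62. DESeq2 called 1700 falling genes, 282 and 883 genotype effects at baseline and after STZ, 109 slope differences, and 233 male and 102 female genes. Without the group factor 499 genes fell. The STZ arm alone gave 561 rising and 83 falling genes, the baseline arm alone 1202 and 524, and the libraries without the 2 of highest score, an alternative chosen after seeing the data, 692 and 49. Without the score the genotype count after STZ was 292 and the sex counts 7 and 2. The cause of these shifts was not tested, beyond the fewer libraries of the arm and left-out fits. Of 102 named slopes none changed sign, but calls were lost: 43 in the STZ arm alone, 37 in the baseline arm alone, 42 without Dach1 KO baseline replicate 1, 42 without the 2 libraries of highest score, 27 without control STZ replicate 3, 21 without control STZ replicate 1, 0 to 19 without each other library or under the other settings. RLE scaling moved the median slope to -0.02. The falling count was 670 with library totals alone, 1067 with upper-quartile scaling and 1175 with RLE scaling, against 873 with TMM. Endothelial genes called as falling numbered 6, 9 and 9 in that order, against 8 with TMM, and podocyte genes 1, 2 and 3, against 1. No paired analysis was possible because the groups are different mice and the labels give no number that they share; the replicate numbers used here only name libraries.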

Other observations

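Genes known to answer to glucocorticoids were looked at after Tsc22d3 was seen among the steepest fallers, so they carry no test. Per1 had a slope of -0.43 (SE 0.08) and was called. Fkbp5 had a slope of -0.94 (SE 0.31) and was just outside the threshold. It was at 39.4, 160 and 37.2 CPM in Dach1 KO STZ libraries, 371, 108 and 27.3 CPM in control STZ libraries, 327, 55.6 and 126 CPM in Dach1 KO baseline libraries, and 411, 108 and 79.4 CPM in control baseline libraries. The library of lowest score held the most in 3 of the 4 groups, and the least in the Dach1 KO STZ group. Control baseline, 1 of those 3, is a weak case: replicates 1 and 3 scored 7.01 and 7.02 but held 411 and 79.4 CPM. Zbtb16 ran from 3.69 to 242 CPM with a slope of -1.23 (SE 0.60) and Sgk1 had a slope of -0.16 (SE 0.09), and neither was called.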
